A study of Homo sapiens with 4 samples.

Results

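Long noncoding RNAs that carry the name of a protein-coding neighbour followed by AS and a number, such as ZEB1-AS1, were followed across DAXX knockdown and across 2 human neuroendocrine tumour cell lines. Members were the genes whose platform-annotated symbol ends in that suffix. Where a gene had several probe sets, the brightest on average stood for it. Genes were selected on that average, which had to reach 5.0 on the log2 scale over the 4 arrays. This left 308 antisense RNAs of the 781 in the table, among 14242 of 19775 genes at that level. Their level is therefore a description, and the differences below are separate from it except where a member passed through 1 line alone.

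Total RNA was measured on 4 one-colour Affymetrix arrays with 1 array per group, and no group had a replicate. The groups were NCI-H727 cells (a bronchial neuroendocrine tumour line) with DAXX siRNA (DAXX-KD), NCI-H727 cells with a negative control siRNA, QGP1 cells (a pancreatic neuroendocrine tumour line) with DAXX siRNA, and QGP1 cells with the control siRNA. All 4 received siRNA by electroporation at a final 50 nM, and the labels name 2 DAXX siRNAs without saying whether they were mixed. DAXX is a chaperone of histone H3.3 that works with ATRX at telomeres and silent chromatin. All values are RMA signals on the log2 scale, which are relative to the other probe sets of an array.

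The line names rest on the sample titles, because another label of the 2 samples titled NCI-H727 gives QGP1 as the line, and the description of all 4 samples names QGP1. Among the lung and islet markers, NKX2-1, GRP and NKX2-2 went against the titles, and SST went with them. The lung transcription factor NKX2-1 read 3.23 and 3.35 on the arrays titled NCI-H727 (DAXX-KD and control), against 8.38 and 8.77 on the arrays titled QGP1. The lung neuroendocrine peptide GRP read 4.12 and 5.37 on the arrays titled NCI-H727, against 11.76 and 12.80 on those titled QGP1. The islet factor NKX2-2 read 9.25 and 9.17 on the arrays titled NCI-H727, against 5.93 and 4.80 on those titled QGP1. SST, the somatostatin gene, read 11.80 and 11.87 on the arrays titled NCI-H727, against 13.07 and 13.83 on those titled QGP1. INS and GCG, which make insulin and glucagon, lay under 5.0 on all 4 arrays. The lung marker SFTPB read 6.64 to 6.96 and the islet marker PDX1 5.23 to 5.54, with differences of 0.04 and 0.22 between the titles. NCI-H727 and QGP1 below therefore mean the arrays with those titles, and every direction between the lines rests on the titles. Of 9 neuroendocrine markers, 9 had a mean above 5.0. Of the leukocyte genes measured, PTPRC was at most 3.68 and CD3E read 4.92 to 5.36. Of 7 fibroblast and endothelial genes, 4 had a mean of at least 5.0, among them COL1A1 at 7.25 to 7.66 and PECAM1 at 5.43 to 6.80. The DAXX probe set read 6.14 in DAXX-KD and 7.35 in control NCI-H727, and 6.56 in DAXX-KD and 8.52 in control QGP1, so both DAXX-KD arrays were lower than their control. A second DAXX probe set differed by -0.83 and -2.14.

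An antisense RNA is transcribed from the DNA strand opposite to its host gene. Some start beside the host's own start and run away from it, a divergent or head-to-head pair that can share a promoter; others start inside or beyond the host and run back across it. Single members are known to recruit chromatin regulators, to bind microRNAs or proteins, or to alter the host's transcription or splicing, but most have no described function. A probe set of an antisense RNA is read here by its annotated symbol; whether each probe set binds the antisense strand alone is not given in the sources used here.

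Start windows of 250 bases before and 50 bases after the start were found in RefSeq (GRCh38.p14) for 238 of the 308 members, and for 208 of these the host had a window too. In 207 of the 208 pairs the starts lay on opposite strands; FAM131B-AS2 was the 1 pair on the same strand. Taking the closest pair of starts, 105 of the 207 pairs had starts within 1000 bases, of which 60 were head to head, and in 61 pairs the windows themselves overlapped. The median distance between starts was 970 bases. For the CG and motif values, a member with several windows was read at the window nearest its host's start, where the host had one. The comparison took every window of every gene, so the selection was unlike. Member windows held a median of 23 CG dinucleotides, against 14 over all 35116 windows. The motif TATAAA, on either strand, was found in 6.3% of member windows and in 11.5% of all windows. The CCAAT box was found in 32.8% and 34.6%, and the ETS-type motif CCGGAAG in 12.2% and 10.3%. A match is a description of the letters and shows no binding.

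The windows below belong to 5 head-to-head members that recur in the results, as the pairs furthest apart between the lines or past 1.5-fold in DAXX-KD. Each is written 5′ to 3′ on the antisense strand, and the capitals mark the stretch that also lies in the start window of the host on the other strand. DPP10-AS1 lies at chr2:115161294-115161593 (minus strand) with 173 shared bases, B3GALT5-AS1 at chr21:39612773-39613072 (minus strand) with 217, ZEB1-AS1 at chr10:31320398-31320697 (minus strand) with 206, RUSC1-AS1 at chr1:155323796-155324095 (minus strand) with 191, and SSTR5-AS1 at chr16:1078682-1078981 (minus strand) with 194.
DPP10-AS1: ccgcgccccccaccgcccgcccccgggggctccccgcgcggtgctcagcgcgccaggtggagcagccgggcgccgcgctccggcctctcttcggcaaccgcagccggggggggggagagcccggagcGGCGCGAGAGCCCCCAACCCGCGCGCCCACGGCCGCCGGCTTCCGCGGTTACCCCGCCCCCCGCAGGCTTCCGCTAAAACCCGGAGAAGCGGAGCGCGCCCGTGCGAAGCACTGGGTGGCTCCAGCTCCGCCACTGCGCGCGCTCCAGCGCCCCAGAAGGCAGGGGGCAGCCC
B3GALT5-AS1: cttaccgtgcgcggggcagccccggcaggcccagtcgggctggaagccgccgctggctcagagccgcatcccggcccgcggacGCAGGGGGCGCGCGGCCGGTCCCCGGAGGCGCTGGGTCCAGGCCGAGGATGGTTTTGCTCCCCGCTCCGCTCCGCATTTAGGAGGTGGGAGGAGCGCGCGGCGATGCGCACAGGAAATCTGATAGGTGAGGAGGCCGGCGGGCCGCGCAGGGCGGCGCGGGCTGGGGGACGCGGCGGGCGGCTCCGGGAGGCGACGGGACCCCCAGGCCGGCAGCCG
ZEB1-AS1: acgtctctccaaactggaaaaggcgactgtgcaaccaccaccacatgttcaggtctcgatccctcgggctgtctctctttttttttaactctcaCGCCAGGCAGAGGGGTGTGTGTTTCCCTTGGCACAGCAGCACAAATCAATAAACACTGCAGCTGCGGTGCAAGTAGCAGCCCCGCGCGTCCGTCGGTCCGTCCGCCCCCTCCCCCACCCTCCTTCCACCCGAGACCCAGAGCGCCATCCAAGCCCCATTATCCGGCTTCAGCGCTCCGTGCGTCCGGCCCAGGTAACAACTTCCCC
RUSC1-AS1: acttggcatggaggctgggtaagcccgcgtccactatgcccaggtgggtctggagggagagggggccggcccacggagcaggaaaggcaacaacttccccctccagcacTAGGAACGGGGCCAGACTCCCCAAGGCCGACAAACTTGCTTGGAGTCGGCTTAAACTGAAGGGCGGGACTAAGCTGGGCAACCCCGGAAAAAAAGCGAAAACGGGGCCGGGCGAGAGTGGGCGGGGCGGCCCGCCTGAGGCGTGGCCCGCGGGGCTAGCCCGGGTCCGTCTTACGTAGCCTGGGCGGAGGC
SSTR5-AS1: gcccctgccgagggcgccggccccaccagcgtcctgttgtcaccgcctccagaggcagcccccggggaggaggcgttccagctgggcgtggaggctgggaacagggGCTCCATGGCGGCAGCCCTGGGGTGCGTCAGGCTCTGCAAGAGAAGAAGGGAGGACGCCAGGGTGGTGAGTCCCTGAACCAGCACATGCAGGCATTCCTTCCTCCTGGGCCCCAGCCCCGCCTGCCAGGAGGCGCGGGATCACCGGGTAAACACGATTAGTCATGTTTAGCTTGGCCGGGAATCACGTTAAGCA
The starts of antisense RNA and host lay 74 bases apart for DPP10-AS1, 118 for B3GALT5-AS1, 107 for ZEB1-AS1, 92 for RUSC1-AS1 and 95 for SSTR5-AS1. The DPP10-AS1 and B3GALT5-AS1 windows held 44 and 43 CG dinucleotides, and the SSTR5-AS1 window held 18.

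The antisense RNAs were mostly dim. Their mean signal over the 4 arrays had a median of 5.84, against 7.74 over all genes kept, and 176 of 308 lay between 5 and 6, 82 between 6 and 7, and 50 at 7 or more. Signals of different probe sets depend on their probes and do not rank the RNAs by amount. Just inside the threshold lay SLCO4A1-AS1 (5.01), WWC2-AS2 (5.01) and SNRK-AS1 (5.02), and just outside it HDAC4-AS1 (4.99), TSC22D1-AS1 (4.98) and CSMD2-AS1 (4.98). On all 4 arrays 247 members read at least 5.0; 5 members were under 5.0 on both NCI-H727 arrays and 16 on both QGP1 arrays. A member of the last 2 kinds was kept through 1 line only and had to differ between the lines.

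In NCI-H727, few antisense RNAs differed between DAXX-KD and control. RNF157-AS1, named for a RING-type ubiquitin ligase gene, was the 1 member past 2-fold. It read 6.11 in DAXX-KD and 7.15 in control NCI-H727, 2.05-fold lower, and 7.50 in DAXX-KD and 7.27 in control QGP1. This is 1 of 308 members at least 2-fold lower and 0 higher, against 1.36% of all 14242 genes lower and 0.183% higher. At 1.5-fold, 7 members were lower and 5 higher, against 5.03% of all genes lower and 1.57% higher. In either direction this is 3.9% of members against 6.61% of all genes, and at 2-fold 0.325% against 1.54%. With 1 array per group these are sizes with no test, and fewer transcripts per cell and fewer expressing cells cannot be told apart.

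The other members at least 1.5-fold lower in DAXX-KD NCI-H727 lay between 1.61-fold and 1.71-fold. RUSC1-AS1 read 5.44 in DAXX-KD and 6.22 in control, and its second probe set differed by 0.21, the other way. Its neighbour RUSC1, an adaptor protein gene, differed by 0.01. ID2-AS1, beside the gene of ID2, an inhibitor of basic helix-loop-helix factors, read 6.68 and 7.37, and ITPR3-AS1, named for a calcium channel of the endoplasmic reticulum, 5.03 and 5.75. SDCBP2-AS1 read 5.23 in DAXX-KD and 5.95 in control. Its other 3 probe sets differed by -0.53, -0.37 and 0.31. LOXL1-AS1, named for an elastin-crosslinking oxidase, read 4.47 in DAXX-KD, under the threshold, and 5.19 in control. B3GALT5-AS1 read 6.79 and 7.49, and its second, dimmer probe set 4.74 and 5.21, so both were lower in DAXX-KD NCI-H727.

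On the higher side in NCI-H727, AP1G2-AS1, named for an adaptor subunit of vesicle coats, read 5.69 in DAXX-KD and 4.90 in control, but its second probe set read 2.86 and 2.95. SERTAD4-AS1 read 6.02 in DAXX-KD and 5.34 in control. SH3PXD2A-AS1, named for a scaffold of invadopodia, read 6.38 and 5.75. CBR3-AS1, named for a carbonyl reductase, read 7.38 and 6.80, and SBF2-AS1 7.68 and 7.10. All 5 antisense RNAs differed by 0.59 to 0.78 on the log2 scale. At the probe sets used, their hosts SERTAD4 and CBR3 were higher too in DAXX-KD NCI-H727, by 0.43 and 0.21. The host SBF2 differed by -0.52, the other way, but its dimmer probe sets by 0.05 and 0.03. AP1G2 differed by -0.22 and SH3PXD2A by -0.003.

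**Figure D1:**
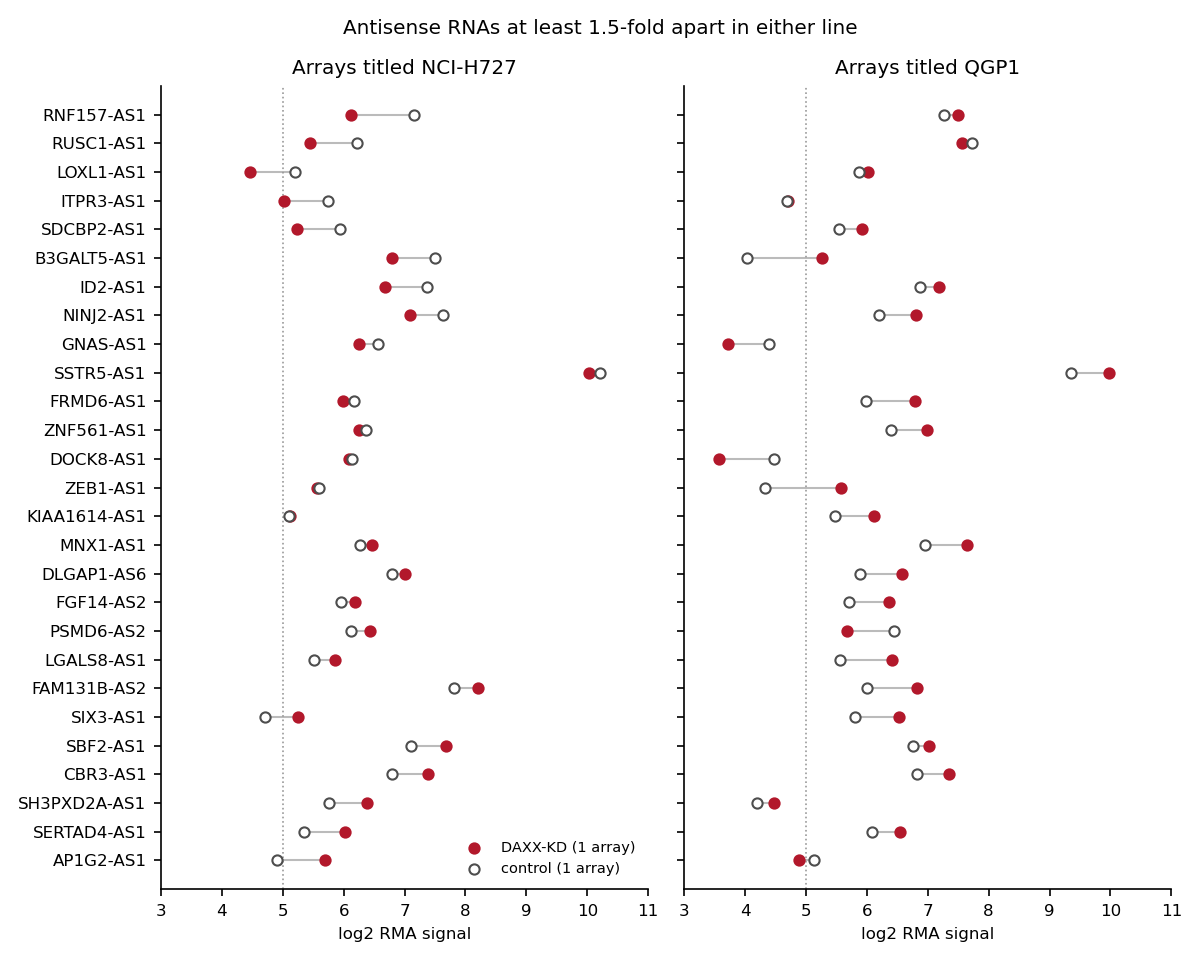
Log2 RMA signal (x axis) of the 27 antisense RNAs at least 1.5-fold apart between DAXX-KD (filled red) and control (open) in either line; each point is 1 array, the left panel holds the arrays titled NCI-H727, the right panel those titled QGP1, and the dotted line marks 5.0. RNF157-AS1 tops the list with 6.11 in DAXX-KD and 7.15 in control NCI-H727, and ZEB1-AS1 shows the widest gap in QGP1, 5.58 in DAXX-KD and 4.33 in control.

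In QGP1 the antisense RNAs past 1.5-fold were mostly higher in DAXX-KD. Of 308 members, 13 were higher by 1.5-fold or more and 3 lower, against 1.73% of all genes higher and 1.32% lower. As shares of members these are 4.22% and 0.974%, and in either direction 5.19% against 3.05% of all genes. At 2-fold 2 members were higher and 0 lower, against 0.26% and 0.232% of all genes, 0.649% against 0.492% in either direction. Both of the 2 had a control value under 5.0, so no fold is given for them.

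ZEB1-AS1, which runs head to head with the gene of the epithelial-mesenchymal transition factor ZEB1, read 5.58 in DAXX-KD and 4.33 in control QGP1, a difference of 1.25, and 5.55 and 5.59 in DAXX-KD and control NCI-H727. The control QGP1 array thus stood apart from the other 3. ZEB1 itself read 5.96 in DAXX-KD and 5.84 in control QGP1. B3GALT5-AS1, beside the gene of a galactosyltransferase that builds type 1 glycan chains, read 5.26 in DAXX-KD and 4.03 in control QGP1. Its second probe set read 4.08 and 4.41, the other direction, and B3GALT5 itself 5.42 and 5.47. Neither host followed its antisense RNA in this line.

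The remaining 11 members higher in DAXX-KD QGP1 lay between 1.52-fold and 1.81-fold. LGALS8-AS1, named for the sugar-binding protein galectin-8, read 6.42 in DAXX-KD and 5.56 in control, and LGALS8 9.29 and 8.65; it was the 1 pair in which antisense RNA and host were both past 1.5-fold in a line. The other 5 LGALS8 probe sets differed by 0.03 to 0.75. FRMD6-AS1, at the gene of a Hippo pathway protein, read 6.79 in DAXX-KD and 5.99 in control. FAM131B-AS2 was higher by 0.82, while its dimmer probe sets differed by at most 0.24. SIX3-AS1, beside a homeobox gene of forebrain and eye, read 6.53 in DAXX-KD and 5.81 in control.

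MNX1-AS1, beside a homeobox gene of motor neurons and pancreas, read 7.65 in DAXX-KD and 6.95 in control QGP1, and MNX1 9.03 and 8.54. DLGAP1-AS6 read 6.58 in DAXX-KD and 5.89 in control, and KIAA1614-AS1 6.12 and 5.47. FGF14-AS2, named for a growth factor relative that binds sodium channels, read 6.36 in DAXX-KD and 5.70 in control, with 5.87 and 4.97 at its second probe set, so both probe sets were higher. SSTR5-AS1, beside the gene of somatostatin receptor 5, read 9.98 in DAXX-KD and 9.36 in control, while SSTR5 stayed under 5.0 on all 4 arrays. NINJ2-AS1 read 6.81 in DAXX-KD and 6.20 in control, and ZNF561-AS1 7.00 and 6.39.

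The 3 members lower in DAXX-KD QGP1 were DOCK8-AS1, PSMD6-AS2 and GNAS-AS1. DOCK8-AS1 read 3.58 in DAXX-KD and 4.48 in control, both under 5.0, and its second probe set 3.89 and 3.32. PSMD6-AS2, named for a proteasome subunit, read 5.67 in DAXX-KD and 6.45 in control. GNAS-AS1, an antisense RNA of the imprinted GNAS locus, read 3.72 and 4.40, both under 5.0, and GNAS 13.31 and 13.39. Of the 3, PSMD6-AS2 alone had a value above the threshold in QGP1.

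The 2 lines were then set side by side. SIX3-AS1, CBR3-AS1 and PITPNA-AS1, the last named after its values were seen, were higher by 0.5 or more in both lines. Their differences were 0.55, 0.59 and 0.51 in NCI-H727 and 0.73, 0.52 and 0.58 in QGP1. The second CBR3-AS1 probe set differed by 0.17 and -0.45. B3GALT5-AS1 was the 1 member past 1.5-fold in both, in opposite directions. Of the 27 members past 1.5-fold in either line, 14 had the same sign in both lines and 13 opposite signs. Matching counts over all 14242 genes were not made, so whether this is particular to antisense RNAs was not tested. A limma fit of all 14242 genes with cell line as a block, in which the lines serve as the only repeats, called 0 members and 0% of all genes at an adjusted p of 0.05. Unadjusted, 24 of 308 members (7.79%) had a limma p under 0.05, 22 higher and 2 lower in DAXX-KD, against 6.95% of all genes. The directions of that 6.95% were not counted, so the split of 22 to 2 was not set against all genes. The smallest p in limma belonged to SIX3-AS1 (0.64, SE 0.13, higher in 2 of 2 lines, unadjusted p = 0.00455, adjusted p = 0.49). CBR3-AS1 (0.55, SE 0.13) had an adjusted p of 0.516 in limma and SERTAD4-AS1 (0.57, SE 0.14) 0.541. These p-values rest on how far 2 lines vary around their mean (1 residual degree of freedom) and on a variance shared over all 14242 genes (4.05 prior degrees of freedom). They measure no spread between repeat arrays of a line.

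**Figure D2:**
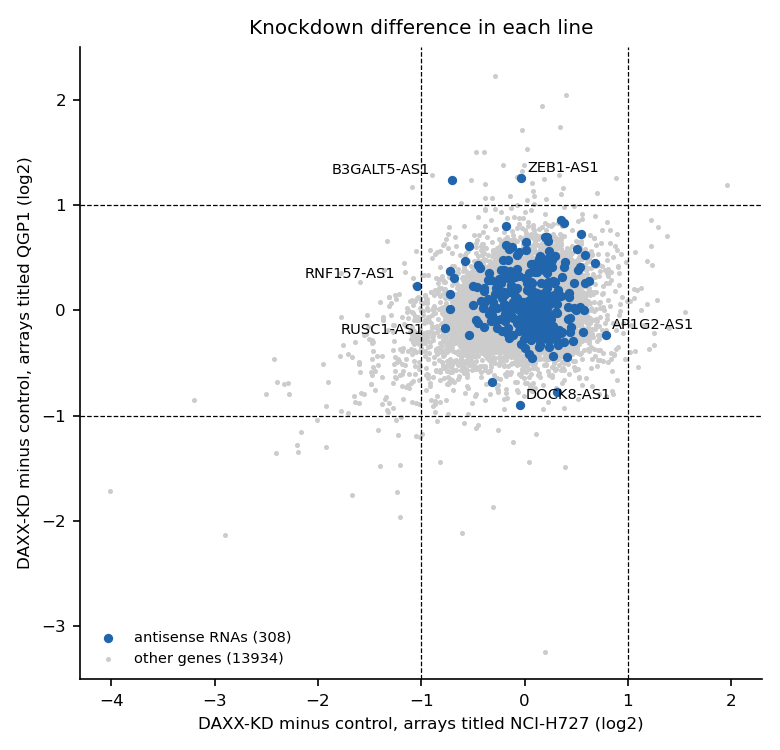
Log2 difference between DAXX-KD and control (DAXX-KD minus control) for the arrays titled NCI-H727 (x axis) and titled QGP1 (y axis); blue points are the 308 antisense RNAs, grey points the other 13934 genes, and dashed lines mark 2-fold. A single antisense RNA lies left of the 2-fold line of NCI-H727 (RNF157-AS1) and 2 lie above that of QGP1 (ZEB1-AS1 and B3GALT5-AS1).

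The middle of the antisense RNAs lay slightly above 0. The median difference was 0.06 in NCI-H727 and 0.05 in QGP1, against 0.01 and 0.02 over all genes, and 62% and 60.4% of members were above 0, against 52.1% and 53.9% of all genes. The medians also differed by level. Among genes with a mean between 5 and 6 the NCI-H727 medians were 0.09 for members and 0.10 for all genes. Between 6 and 7 both were 0.03, and at 7 or more they were 0.04 and -0.02. In QGP1 the medians between 5 and 6 were 0.01 for members and -0.04 for all genes, and between 6 and 7 they were 0.09 and 0.01. Among genes at 7 or more they were 0.20 for the 50 members and 0.04 for all genes. The central 95% of members lay between -0.55 and 0.54 in NCI-H727 and between -0.35 and 0.67 in QGP1. Probe sets of 1 member disagreed with an SD of 0.23 in NCI-H727 and 0.26 in QGP1, over 46 members with more than 1 probe set at 5.0 or more.

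Host genes were set beside their antisense RNA under DAXX-KD. A host with a mean of at least 5.0 was measured for 247 members; 31 hosts were dimmer, 5 had only probe sets shared with another gene and 25 had no probe set under the host name in the table used here, among them the HOX clusters, which are no single gene. Antisense RNA and host had the same sign in 132 of 247 pairs in NCI-H727 and in 135 of 247 in QGP1. Across pairs, which share arrays and are not independent replicates, Pearson's r was 0.13 in NCI-H727 and 0.20 in QGP1 (Spearman 0.15 and 0.16).

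At 1.5-fold, 11 antisense RNAs and 16 hosts (6.48% of 247) were past the line in NCI-H727 with 0 pairs in common, and 13 and 11 (4.45%) in QGP1 with 1 in common, LGALS8. With so few hosts past 1.5-fold, these overlaps do not show whether hosts and antisense RNAs move together. The hosts past 2-fold were EPB41L4A (-1.06), URB1 (-1.03) and FGF14 (-1.01), all lower in DAXX-KD NCI-H727, and their antisense RNAs differed there by -0.35 (EPB41L4A-AS1), 0.24 (URB1-AS1) and 0.23 (FGF14-AS2). In the last 2 pairs host and antisense RNA differed in opposite directions.

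Between the lines the antisense RNAs differed far more than between DAXX-KD and control. On the mean of the 2 arrays of a line, 29 members were higher in NCI-H727 by 2-fold or more and 17 lower, against 10.8% of all genes higher and 12% lower. Either way this is 14.9% of members against 22.9% of all genes. In the same limma fit, 120 of 308 members (39%) passed at an adjusted p of 0.05, 73 higher and 47 lower in NCI-H727, against 49.4% of all genes (23.7% higher and 25.7% lower). The 308 include 16 members kept through NCI-H727 alone, which had to read higher there, and 5 kept through QGP1 alone, which had to read lower. The counts and their split by direction are thus partly set by the threshold. Among 247 members at 5.0 or more on every array 87 passed, but the share of all genes at that level on every array was not computed. The control arrays alone gave 49 members past 2-fold and the DAXX-KD arrays alone 53, against 22.3% and 24.4% of all genes.

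Level moved with the share past 2-fold. Of members with a mean between 5 and 6, 10.8% were past 2-fold between the lines, against 15.6% of all genes at that level. Between 6 and 7 the shares were 15.9% and 28.2%. At 7 or more they were 28% of 50 members and 24% of all genes. The differences between these shares were not tested. On the control arrays alone the members' share at 7 or more was 24%. The share of all genes at that level on the control arrays alone is not given here.

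**Figure D3:**
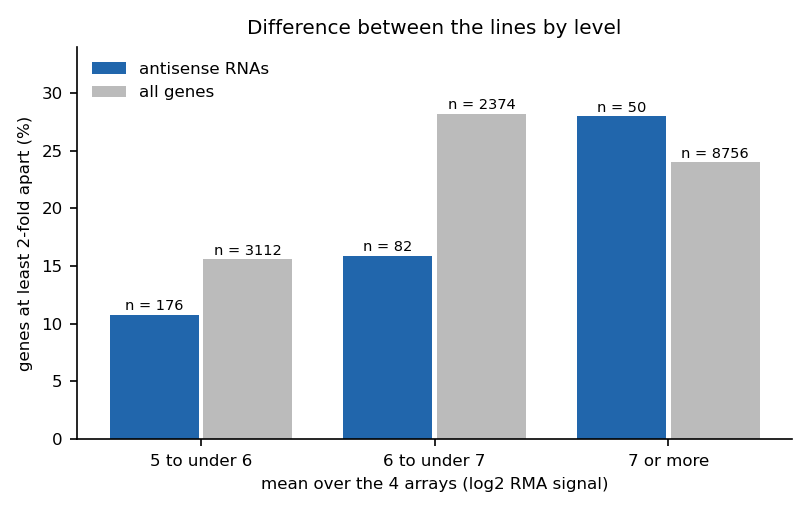
Share of genes at least 2-fold apart between NCI-H727 and QGP1 (y axis, percent) by mean signal over the 4 arrays (x axis, log2), for antisense RNAs (blue) and all genes (grey), with the number of genes above each bar. The blue bar is shorter at 5 to under 6 (10.8% and 15.6%) and at 6 to under 7 (15.9% and 28.2%), and taller at 7 or more (28% and 24%).

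The members furthest toward NCI-H727 were VAC14-AS1, ZNF793-AS1, ARHGAP5-AS1, ZNF790-AS1, HOXD-AS2, BBOX1-AS1, B3GALT5-AS1 and GNAS-AS1. Of these, VAC14-AS1, ZNF793-AS1, ZNF790-AS1, BBOX1-AS1 and GNAS-AS1 were under 5.0 on both QGP1 arrays and were kept through NCI-H727 alone, so their values are given with no test. B3GALT5-AS1 read 4.03 in control QGP1, and its QGP1 arrays averaged under 5.0. It reached the threshold through NCI-H727 and is also given with no test. ARHGAP5-AS1 and HOXD-AS2 passed in limma, with adjusted p-values of 6.17e-05 and 0.000413. VAC14-AS1, which reads toward the start of a gene for a phosphoinositide kinase scaffold from 46063 bases away, read 7.68 and 8.07 on the DAXX-KD and control NCI-H727 arrays, against 3.20 and 3.02 on those of QGP1. VAC14 differed by -0.37, so the host did not follow.

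ARHGAP5-AS1, beside the gene of a RhoGAP, read 10.39 and 9.87 on the DAXX-KD and control arrays of NCI-H727, against 6.98 and 6.60 on those of QGP1, 10.1-fold higher, and ARHGAP5 was higher too (1.60), although its other probe sets ranged from -1.67 to 1.54. ZNF793-AS1 read 6.76 and 7.09 in NCI-H727, against 3.37 and 3.46 in QGP1, and its host, a zinc finger gene, differed by 1.09. ZNF790-AS1, at another zinc finger gene, read 7.49 and 7.68 in NCI-H727, against 4.52 and 4.19 in QGP1, and its second probe set differed by 0.97. HOXD-AS2, from the HOXD cluster of body-axis homeobox genes, read 8.86 and 8.45 in NCI-H727, against 5.23 and 5.67 in QGP1, 9.23-fold higher. In each of these the 2 arrays of a line lay close together and the lines did not overlap.

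BBOX1-AS1, named for a carnitine synthesis enzyme, read 7.82 and 7.91 in NCI-H727, against 4.85 and 4.66 in QGP1, and BBOX1 lay under 5.0 on all 4 arrays. B3GALT5-AS1 read 6.79 and 7.49 in NCI-H727, against 5.26 and 4.03 in QGP1, but its second probe set differed by 0.73 between the lines, a much smaller size. B3GALT5 read 10.59 and 10.91 in NCI-H727, against 5.42 and 5.47 in QGP1. GNAS-AS1 read 6.24 and 6.56 in NCI-H727, against 3.72 and 4.40 in QGP1, while GNAS differed by -0.61. Of these 3, B3GALT5-AS1 alone had a host past 2-fold that read above 5.0.

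The members furthest toward QGP1 were led by DPP10-AS1, which runs head to head with the gene of a potassium channel partner, DPP10. It read 4.93 on both NCI-H727 arrays, against 10.56 in DAXX-KD and 10.92 in control QGP1. DPP10-AS1, DLX6-AS1, FAM13A-AS1 and SLC16A1-AS1 were under 5.0 on both NCI-H727 arrays and were kept through QGP1 alone, so they too are given with no test. DPP10 read 2.86 and 2.72 in NCI-H727, against 9.22 and 9.36 in QGP1. Both RNAs of the pair were thus bright in QGP1 and under the threshold in NCI-H727.

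DLX6-AS1, from the DLX5 and DLX6 homeobox locus, read 4.12 and 3.87 in NCI-H727, against 6.59 and 6.16 in QGP1, and DLX6 differed by -3.95. FAM13A-AS1 read 4.83 and 4.76 in NCI-H727, against 6.90 and 6.79 in QGP1, and FAM13A, a gene linked to lung disease, differed by -2.93. The second FAM13A-AS1 probe set differed by -0.31. RUSC1-AS1 differed by -1.81 and RUSC1 by -1.43, while the second RUSC1-AS1 probe set differed by 0.04. At the probe sets used, antisense RNA and host were both lower in NCI-H727 in these 3 pairs.

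AGAP2-AS1 read 5.24 and 4.95 in NCI-H727, against 7.30 and 7.15 in QGP1, and AGAP2, a GTPase-activating protein gene, differed by -0.13. SLC16A1-AS1 differed by -1.81, ERCC6L2-AS1 by -1.67 and ZNF232-AS1 by -1.51. In limma AGAP2-AS1, RUSC1-AS1, ERCC6L2-AS1 and ZNF232-AS1 had adjusted p-values between 0.000248 and 0.00139. For ERCC6L2-AS1 the 3 other probe sets differed by -0.10 to 0.49, so its difference rests on 1 probe set. The second ZNF232-AS1 probe set differed by -0.55, and the SLC16A1-AS1 ones by -0.18 and -1.60, so these sizes also depend on the probe set.

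**Figure D4:**
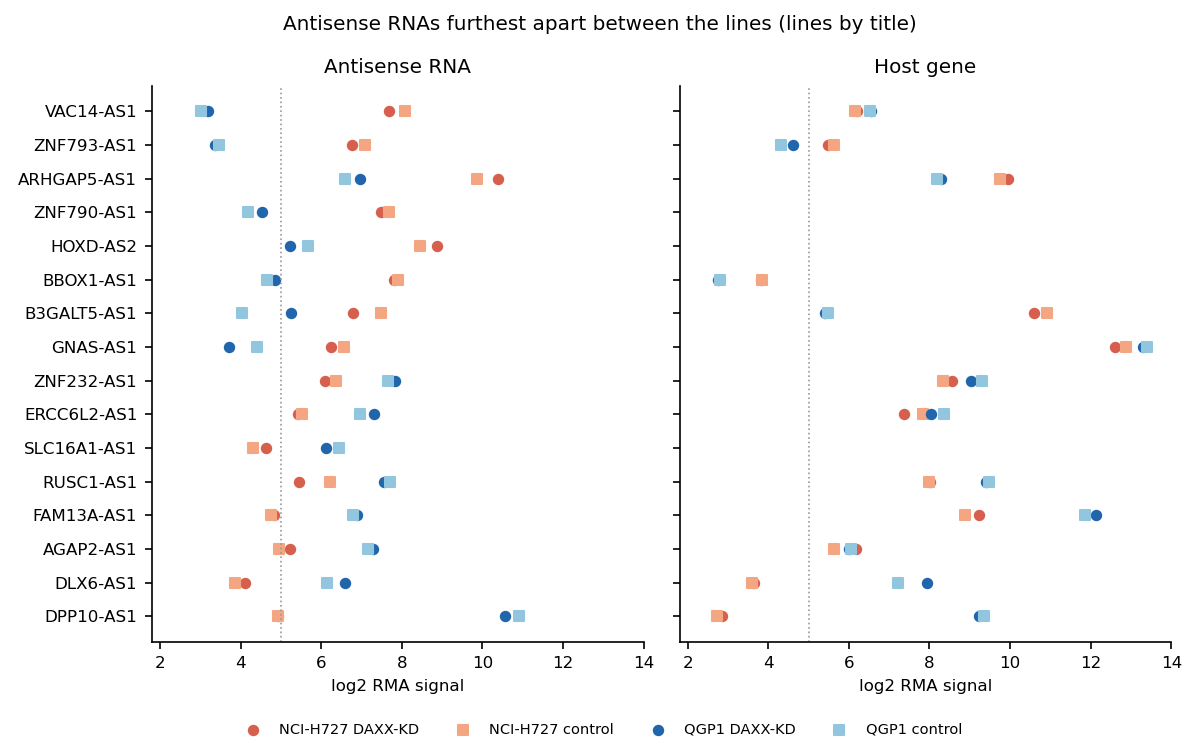
Log2 RMA signal (x axis) of the 16 antisense RNAs furthest apart between the lines (left) and of their host genes (right); circles are DAXX-KD and squares control arrays, red NCI-H727 and blue QGP1, 1 array each, and the dotted line marks 5.0. The lines separate in every antisense row; DPP10 and B3GALT5 separate as their antisense RNAs do, while VAC14 and AGAP2 lie close together (hosts without a measured probe set are blank).

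Between the lines, host and antisense RNA were compared in the same 247 pairs. Of these 147 had the same sign, with a Pearson r of 0.39 (Spearman 0.27) across pairs, which share the 4 arrays. Without DPP10-AS1 and VAC14-AS1, the 2 pairs furthest from the median, r was 0.34. Of 38 antisense RNAs and 73 hosts past 2-fold, 17 pairs were past it together, 44.7% of the antisense RNAs and 23.3% of the hosts, where 29.6% of all 247 hosts were past 2-fold, and 14 of the 17 went the same way. Members and hosts were filtered on the same mean over the 4 arrays. In the DPP10 and DLX6 pairs both RNAs lay under 5.0 on the NCI-H727 arrays, were kept through QGP1 alone and had to differ. In the ZNF793 pair both RNAs lay under 5.0 on the QGP1 arrays, were kept through NCI-H727 alone and likewise had to differ. The overlap and r include such pairs and are descriptions only.

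The 3 opposite pairs were TRIM52-AS1 (1.07 against -1.22 for TRIM52), FAM131B-AS2 (1.60 against -1.01) and SH3PXD2A-AS1 (1.74, with both QGP1 arrays under 5.0 and its host 2-fold lower). TRIM52-AS1 was named after its value was seen. So were 2 pairs with a steeper host: FZD10-AS1 differed by 1.20 and FZD10, a Wnt receptor gene, by 6.52, and ITGB8-AS1 differed by 1.02 and ITGB8, an integrin subunit gene, by 3.54.

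Pairs were also split by the distance between starts. In 88 pairs with opposite starts within 1000 bases, Pearson's r between the lines was 0.64 and Spearman's rho 0.41; in 79 pairs with starts farther apart they were 0.29 and 0.25. Without DPP10-AS1 and ZNF793-AS1 the r of the close pairs was 0.48. In 50 pairs whose windows overlapped r was 0.71, and without DPP10-AS1 and B3GALT5-AS1 it was 0.28, so that value rests on these 2 pairs. Same signs were seen in 54 of 88 close and 45 of 79 distant pairs. The difference between the 2 kinds of pair was not tested. Both kinds hold members kept through 1 line alone, such as DPP10-AS1 among the close pairs and VAC14-AS1 among the distant ones.

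**Figure D5:**
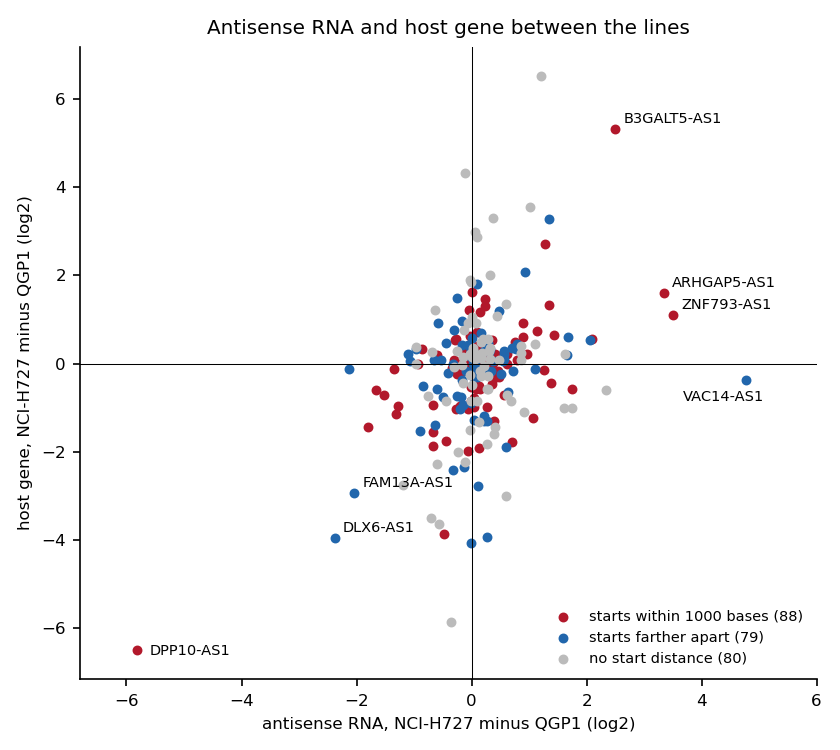
Difference between the lines, NCI-H727 minus QGP1 on the log2 scale, of the antisense RNA (x axis) and its host gene (y axis) in 247 pairs; red pairs have starts on opposite strands within 1000 bases (88), blue pairs have starts farther apart (79), and grey pairs have no start distance (80). DPP10-AS1 (-5.81, host -6.50) lies far out near the diagonal and B3GALT5-AS1 (host 5.31) well above it, while VAC14-AS1 lies at 4.76 with its host near 0.

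Antisense RNAs with a described role, from a list of 50 names, gave 23 members. Of these, 6 (26.1%) were past 2-fold between the lines, against 22.9% of all genes. DLX6-AS1 and GNAS-AS1 are among these and were kept through 1 line alone. Past 1.5-fold between DAXX-KD and control were 2 (8.7%) in NCI-H727, against 6.61% of all genes, and 3 (13%) in QGP1, against 3.05%. Of the 3 in QGP1, GNAS-AS1 read under 5.0 on both QGP1 arrays and ZEB1-AS1 on the control array. MNX1-AS1 alone read above 5.0 on both. OIP5-AS1, an RNA that binds microRNAs and the protein HuR, read 8.38 and 8.57 on the DAXX-KD and control NCI-H727 arrays, against 9.06 and 9.05 on those of QGP1. Its 2 other probe sets differed between the lines by -2.20 and -2.15, against -0.58 at the first, so the size depends on the probe set. NR2F1-AS1 differed by 0.27 between DAXX-KD and control QGP1, and by 1.06 at another probe set; a further one read 6.43 in DAXX-KD and 5.43 in control. FGD5-AS1 was the probe set with the highest mean, at 10.48 and 10.61 in NCI-H727, against 9.96 and 10.01 in QGP1.

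TMPO-AS1, beside the gene of a nuclear lamina protein, was higher in NCI-H727 by 1.34, as was TMPO by 1.32. THAP9-AS1 (-1.27) and NNT-AS1 (-1.32) were lower, and both passed in limma (adjusted p = 0.00288 and 0.00176). HOXB-AS3, from the HOXB cluster, was lower in NCI-H727 (-1.03), and the 4 remaining HOXB-AS3 probe sets gave -0.10 to -1.34, so all 5 pointed the same way. GATA2-AS1, LEF1-AS1, MAPT-AS1, MCM3AP-AS1, VPS9D1-AS1, TTN-AS1, ADAMTS9-AS2, NR2F2-AS1, HOXB-AS1 and WWC2-AS2 were all within 1.5-fold in DAXX-KD and between the lines at the probe sets used. Other probe sets of 3 of them were past 1.5-fold between the lines, by -1.41 for TTN-AS1, 0.79 for MAPT-AS1 and -0.61 for MCM3AP-AS1, and that of TTN-AS1 also differed by 0.78 in DAXX-KD NCI-H727. The other bright members EPB41L4A-AS1, PRR34-AS1, WAC-AS1, ST8SIA6-AS1 and OTUD6B-AS1 were within 1.5-fold between DAXX-KD and control in both lines.

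Noncoding genes named by other rules gave the values that follow. Of 216 genes with LINC names at the same level, 16.7% were past 2-fold between the lines, and 1 was past it in each line under DAXX-KD. Of 90 genes named as divergent transcripts (suffix DT), 14.4% were past 2-fold between the lines and 0 under DAXX-KD. Only 8 intronic (IT) and 3 overlapping (OT) transcripts reached the threshold. No test of the difference between these name classes was made.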

How the data were processed

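The deposited table held log2 expression values that the authors made with RMA (affy 1.40.0 in R 3.0.3), per the submitters' processing notes, for 54613 probe sets on 4 arrays. RMA subtracts background, quantile-normalizes and summarises probes, so values are relative within an array. Gene symbols came from GEO's platform annotation; the 41091 probe sets with 1 symbol were used. RefSeq (GRCh38.p14) gave 305 of 308 members an entry and supplied start windows.

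Differences were computed in Python 3.11.15 and described by size at 1.5-fold and 2-fold, since each group had 1 array and the number of arrays limits the precision. limma 3.58.1 (R 4.3.3) was fitted to all genes with a mean of at least 5.0, with treatment and cell line as terms, 1 residual and 4.05 prior degrees of freedom, and two-sided Benjamini-Hochberg adjusted p-values; it was tested on simulated data. Nothing in the labels says that arrays came from separate cultures. The cell line pairs the arrays, per the titles.

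Genes were named by rule: members past 1.5-fold in a line, the 10 with the highest mean, the 8 furthest apart in each direction between the lines, those beside the threshold, and a list of 50 antisense RNAs. The members and lists were chosen with earlier results of these data known.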

Additional observations from a re-analysis of the deposited data

Results flagged for a closer look

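In 5 antisense RNAs past 1.5-fold in a line, the 2 lines went in opposite directions under DAXX-KD, each by more than the SD between probe sets of a member. With 1 array per group the difference between the lines was not tested, and no matching count over all genes was made. The NCI-H727 difference minus the QGP1 difference, on the log2 scale, was -1.94 for B3GALT5-AS1 (-0.70 and 1.24), though its second probe set differed by -0.47 and -0.33. It was -1.15 for NINJ2-AS1 (-0.54 and 0.61), -1.09 for SDCBP2-AS1 (-0.72 and 0.37), -0.99 for ID2-AS1 (-0.68 and 0.31) and 1.09 for PSMD6-AS2 (0.31 and -0.77). The second probe sets of NINJ2-AS1 differed by -0.15 and 0.52, of ID2-AS1 by 0.03 and 0.54 and of PSMD6-AS2 by -0.13 and -0.15. The other 3 of SDCBP2-AS1 differed by -0.37 and -0.14, -0.53 and 0.09, and 0.31 and -0.55, so 1 of 3 had its signs.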

How the results depend on the processing

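The count of antisense RNAs past 2-fold in DAXX-KD NCI-H727 was 1 under every alternative tried: averaging all probe sets per gene, probe sets without a suffix only, a threshold of 4.5, 6.0 or none, a second quantile normalization and, chosen after seeing the data, without members under 5.0 on both arrays of the line. In QGP1 the count of 2 became 1 when all probe sets per gene were averaged, 1 with probe sets without a suffix, where B3GALT5-AS1 is read by its other probe set, and 0 at a threshold of 6.0, which ZEB1-AS1 and B3GALT5-AS1 do not reach. No matching 2-fold counts over all genes were made under these alternatives. The limma fit for DAXX-KD called 0 members under every alternative. These included an intensity trend and the fit with no replicate block, in which cell line is left out. Over all 14242 genes the fit with the intensity trend called 5, all lower in DAXX-KD. Every other alternative called 0 genes. An unadjusted limma p under 0.05 was reached by 13 to 33 members with the block and by 0 without it. The 13 of 132 at a threshold of 6.0 stood against 947 of 11130 genes. With no threshold, the 33 of 781 stood against 1120 of 19775 genes. Without the block, 38 of 14242 genes reached it. Between the lines limma called 73 members of 132 at a threshold of 6.0, where fewer genes were tested, against 6520 of 11130 genes. It called 107 to 148 members under the other alternatives. The 107 of 258 with probe sets without a suffix stood against 5357 of 11023 genes. With no threshold, the 148 of 781 stood against 7156 of 19775 genes. With no replicate block, in which treatment is left out, it called 117 members, against 6969 of 14242 genes. Restricting to members at 5.0 or more on all 4 arrays, also chosen after seeing the data, left 87, with no matching count over all genes. No array could be left out in turn, since each group had 1. With probe sets without a suffix 2 values reversed: AP1G2-AS1 in NCI-H727 (-0.092) and B3GALT5-AS1 in QGP1 (-0.33). Of the single differences of named members, 186 of 186 moved by less than the probe set SD after the second quantile normalization and 152 of 186 when probe sets were averaged. Dim signal limits most members: 176 of 308 lay under 6.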
